A study of Mus musculus with 12 samples.

Results

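The Gata factors are zinc finger transcription factors named after the DNA word they bind, and the Fog cofactors, encoded by Zfpm1 and Zfpm2, attach to the zinc fingers of Gata proteins and alter what they do at their targets. The group described here holds 8 genes, Gata1 to Gata6, Zfpm1 and Zfpm2, taken by symbol from the 22180 genes measured. Of these, 7 had 1 probe set, and the Gata3 probe set was chosen by its mean level over all 12 arrays, the brighter being used. Genes were otherwise selected by name, within a family picked with earlier results of these data known. The lungs came from mouse embryos at E14.5, in 3 genotypes with 4 arrays each. Controls were Shh+/Cre, that is, they carried Cre at 1 of their Shh alleles. Yy1 mutants were Yy1flox/flox;Shh+/Cre, and Dicer mutants were Dicerflox/flox;Shh+/Cre, so every embryo carried the same Cre allele and a single unaltered Shh allele. Shh is known to be expressed by the lung epithelium, while the RNA is labelled as lung with no sorting step, so mesenchyme, vessels, nerves and blood could contribute as well. In such bulk samples, fewer cells of a type and less RNA per cell cannot be told apart.

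Gata1, Gata2 and Gata3 are best known from blood: Gata1 drives red cell, platelet and mast cell genes, Gata2 acts in blood stem cells, mast cells and endothelium, and Gata3 in T cells, innate lymphoid cells and parts of the nervous system. Gata4, Gata5 and Gata6 belong to the heart, the gut tube and the mesenchyme around it, and Gata6 is the family member of the lung epithelium, where it works beside Nkx2-1 and Foxa factors on surfactant and Wnt genes. Zfpm1 (Fog1) is the partner of Gata1 in blood cells, and Zfpm2 (Fog2) the partner of Gata4 in heart and mesenchyme.

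Values are log2 expression, so a difference of 1 is a doubling, and levels of different genes were not set against each other because each probe set has its own brightness. A gene was called changed at an adjusted p under 0.05 over all 22180 genes in limma, and because the group was picked with earlier results of these data known, its p-values are no independent support. The array medians ran from 5.99 to 6.08. Dicer1 fell by 0.61 in Dicer mutants (adjusted p = 0.00127). For Yy1 the difference in Yy1 mutants was -0.19 (adjusted p = 0.125), and the probe sets may lie outside the floxed exons, so neither value measures the deletion itself. The Y-linked gene Eif2s3y read 5.92 to 7.99 on 3 mutant arrays, Yy1 mutants 2 and 3 and Dicer mutant 4, against 3.73 to 4.48 in the controls. They are called the Y-high arrays here. The labels do not say whether specimens came from separate litters, so the p-values measure only the spread between these specimens.

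Promoter sequence was at hand for 5 of the 8 genes, from RefSeq on GRCm38.p6, but not for Gata4, Gata6 or Zfpm2. So nothing below bears on the promoters of those genes. Sequence is shown for the pair with the most and the fewest CpG dinucleotides, since these are the promoters of a blood factor and of its cofactor. Each line gives the 250 bases before the annotated start, 5′ to 3′ on the gene's strand, with every CpG in capitals. The Zfpm1 window is chr8:122281891-122282140 on the plus strand, and the Gata1 window is chrX:7967911-7968160 on the minus strand.
Zfpm1: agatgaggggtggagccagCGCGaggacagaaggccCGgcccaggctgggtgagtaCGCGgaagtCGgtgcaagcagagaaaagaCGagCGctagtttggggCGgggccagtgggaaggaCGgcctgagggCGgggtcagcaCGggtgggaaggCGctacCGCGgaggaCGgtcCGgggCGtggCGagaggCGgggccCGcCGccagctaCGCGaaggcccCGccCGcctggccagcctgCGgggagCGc
Gata1: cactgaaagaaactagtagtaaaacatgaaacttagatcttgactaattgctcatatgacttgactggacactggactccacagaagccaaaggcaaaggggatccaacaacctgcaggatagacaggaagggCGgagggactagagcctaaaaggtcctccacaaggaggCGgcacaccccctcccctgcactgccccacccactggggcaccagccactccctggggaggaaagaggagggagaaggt
The Zfpm1 window held 28 CpG, and 92.4% of the 32851 promoters in the table have fewer. Of its bases, 73.2% were G or C. The Gata1 window held 2 CpG, and 18.8% of promoters have fewer. The windows of Gata2, which has a pair of listed starts, Gata3 and Gata5 held 19 to 24 CpG, against a median of 6 over all promoters. The Gata words searched on both strands were the word AGATAA, the word AGATAG, the word TGATAA plus the word TGATAG. They occurred in 26.5% of all promoters and in 0 of the 6 windows of the group. The Yy1 words were CCATNTT, plus the longer word AAGATGGC whose reverse complement can overlap it. They occurred in 12.4% of all promoters and likewise in 0 of the 6, which says only that these letters are not in these windows.

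**Figure D1:**
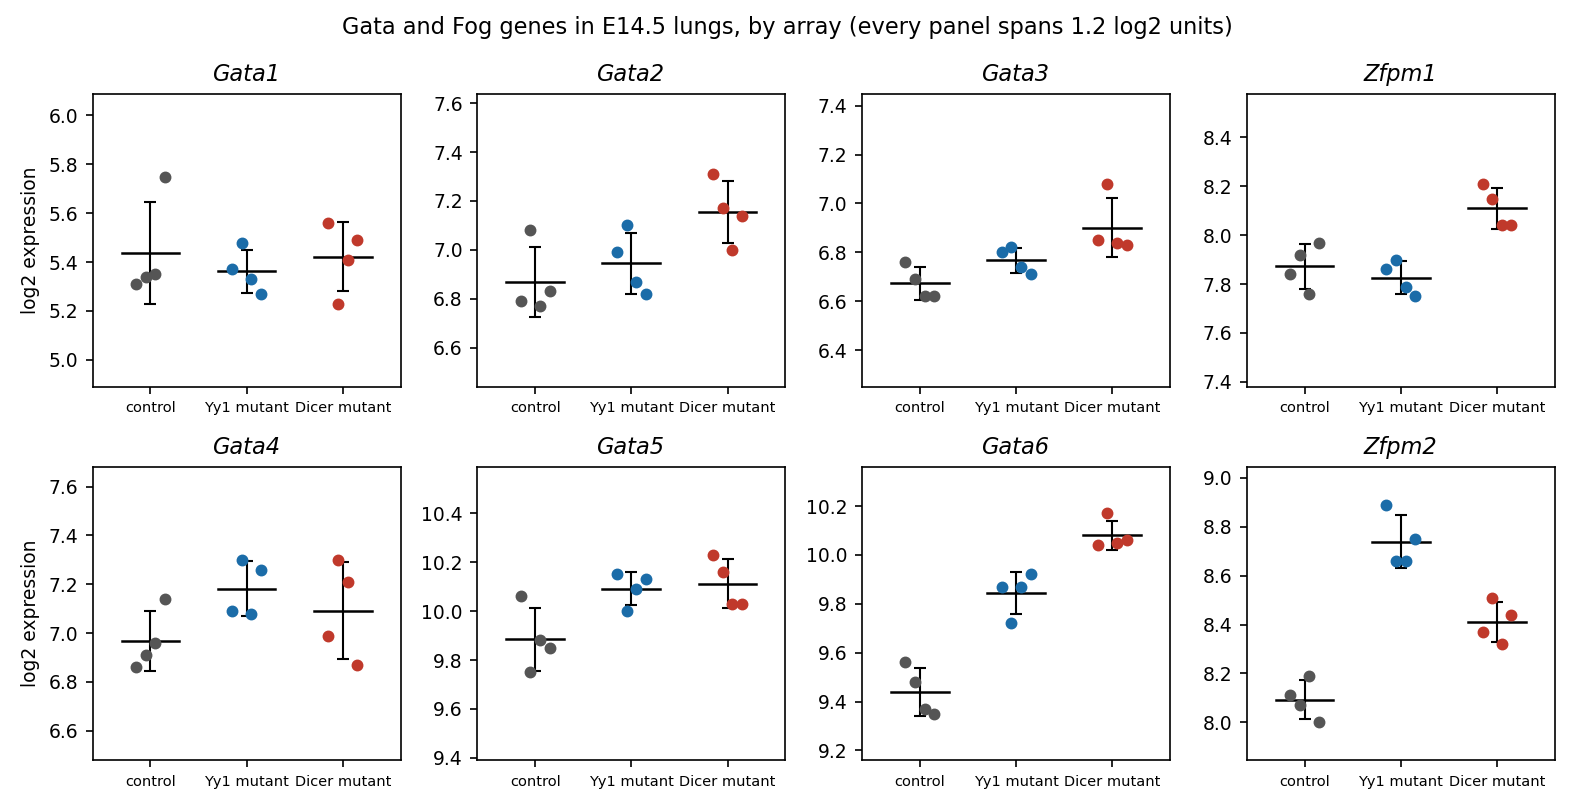
Log2 expression of the 8 genes on each of the 12 arrays (points), with the mean and SD of each genotype (lines and bars, n = 4); every panel spans the same number of log2 units. Gata6 and Zfpm2 lay above all controls on every mutant array, with Gata6 highest in Dicer mutants and Zfpm2 highest in Yy1 mutants, while Gata1 overlapped in all genotypes.

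Across the family, Gata6 and Zfpm2 rose in both mutants, and no member fell in either mutant against controls. In Yy1 mutants 2 of 8 members were called, both higher, where 6.61% of all genes were called and 2.77% were called higher. In Dicer mutants it was also 2 of 8, where 8.75% of all genes were called and 4.78% were called higher. Between the mutants 2 of 8 were called, where 4.96% of all genes were. Counting genes whose 4 mutant arrays all lay beyond the 4 controls, 2 members in Yy1 mutants and 4 in Dicer mutants were higher and 0 were lower, where 5.57% and 7.50% of all genes were higher and 7.05% and 8.45% lower. Between the mutants 1 member was so separated upwards and 3 downwards, where 6.60% and 7.19% of all genes were. The median difference of the 8 members was 0.15 in Yy1 mutants and 0.23 in Dicer mutants, beside 0.00 and -0.03 for all genes. Both mutants were measured against the same controls, so their differences are not independent of each other.

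Gata6, the endodermal member, was the most strongly raised in Dicer mutants. It read 9.56, 9.48, 9.37 and 9.35 in the controls, 9.87, 9.72, 9.87 and 9.92 in Yy1 mutants, and 10.04, 10.17, 10.05 and 10.06 in Dicer mutants. The 3 genotypes did not overlap: every Yy1 mutant array lay above every control, and every Dicer mutant array above every Yy1 mutant. In Yy1 mutants Gata6 rose 1.33-fold, by 0.41 (SE 0.0697; adjusted p = 0.00285). In Dicer mutants it rose 1.56-fold, by 0.64 (SE 0.0697; adjusted p = 7.39e-05). Both calls held with each array left out in turn and without the Y-high arrays (adjusted p = 0.0257 and 0.00149), and the smaller rise did not pass a test for changes beyond 1.2-fold (adjusted p = 0.988). The direct difference of -0.24 between Yy1 and Dicer mutants (95% interval -0.39 to -0.09) missed the threshold (adjusted p = 0.0739) and passed it in 4 of 22 alternatives.

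Gata6os, a gene that overlaps Gata6 in the RefSeq annotation and carries the name of an opposite-strand transcript, was raised on the same arrays. It read 7.55 to 7.85 in the controls, 8.36 to 8.43 in Yy1 mutant lungs and 8.48 to 8.71 in Dicer mutants, with no overlap between the genotypes. It rose by 0.66 in Yy1 mutants (adjusted p = 0.000138) and by 0.87 in Dicer mutants (adjusted p = 1.42e-05). It was added because it overlaps Gata6, after values were seen. Whether the probes tell the strands apart is not given in the sources used here, so its signal and that of Gata6 may not be independent. Among the ranked genes, those whose log2 values followed Gata6 most closely over the 12 arrays were Nrros, the thiolase gene Acaa2 and the lysosomal lipase gene Lipa, with Pearson correlations of 0.984, 0.976 and 0.974. These correlations largely trace the means of the 3 genotypes and are given as a description.

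The rise of Gata6 ran against most of the epithelial markers. Of 13 epithelial genes, 8 fell in Yy1 mutants and 9 in Dicer mutants, and 0 rose in either (background 3.84% and 3.97% called lower), with medians of -0.45 and -0.38. Without the Y-high arrays, 4 fell in Dicer mutants. The mean level of the list ran from 8.15 to 8.40 over the controls, from 7.59 to 7.89 over Yy1 mutants, and from 7.69 to 7.91 over Dicer mutants. Cldn6, which encodes a claudin, fell by 0.93 and 0.81. Epcam, an epithelial adhesion gene, fell by 0.45 in Yy1 mutants but not in Dicer mutants. There it read 9.41 to 9.50, above all controls at 9.25 to 9.40, and was not called. Esrp2, an epithelial splicing regulator, fell by 0.87 in Yy1 mutants (adjusted p = 5.03e-05) and by 0.38 in Dicer mutants (adjusted p = 0.0166), the latter lost without the Y-high arrays (0.0623) or without Dicer mutant 2 (0.0569). On each array, Gata6 minus the mean of these 13 genes was 1.08 to 1.31 in controls, 1.83 to 2.33 in Yy1 mutant lungs and 2.14 to 2.48 in Dicer mutants. This follows from the higher Gata6 and the lower list mean on every mutant array, and is no separate result. Which cells carried the Gata6 signal was not measured, and Gata6 is also known from mesenchyme, of whose 11 markers 5 rose in each mutant and 6 were not called.

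**Figure D2:**
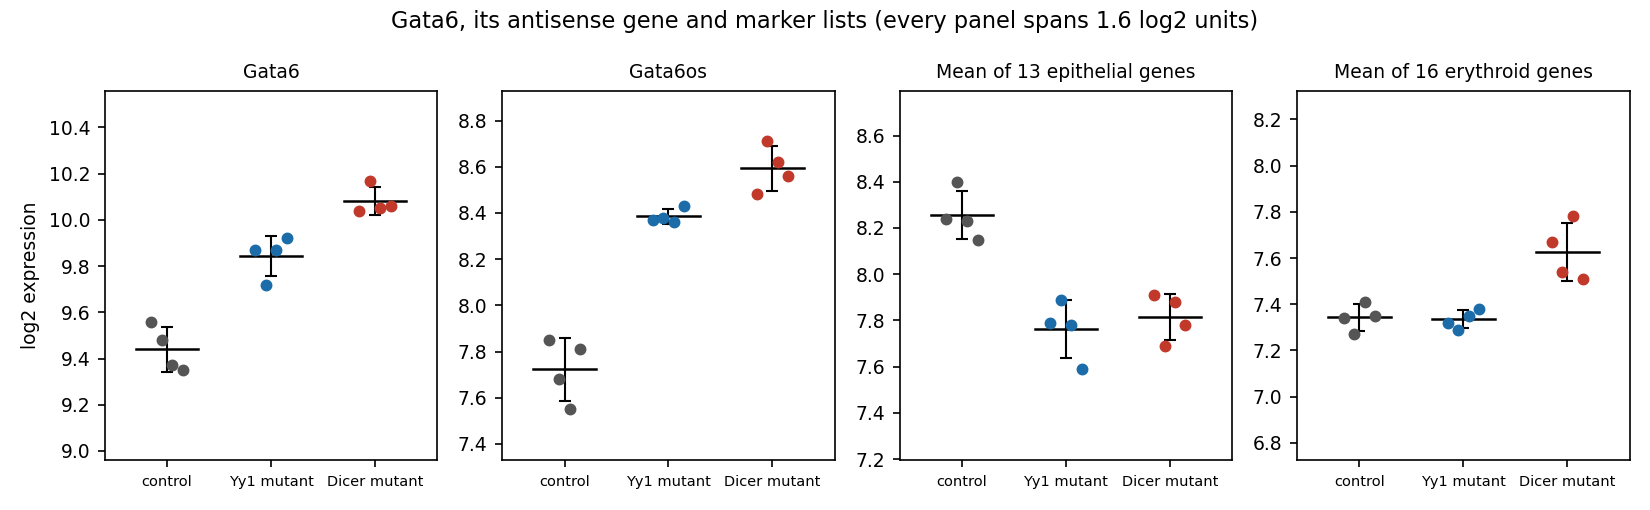
Log2 expression of Gata6 and Gata6os and the mean log2 level of 13 epithelial and 16 erythroid genes on each array (points), with the mean and SD of each genotype (n = 4) and equal axis spans. Gata6 and Gata6os step up from control to Yy1 mutant to Dicer mutant, and the epithelial mean is lower in both mutants. The erythroid mean is 7.51 to 7.78 in Dicer mutants against 7.27 to 7.41 in controls. Of the 16 erythroid genes, 4 were called higher in Dicer mutants.

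The genes that Gata6 works with or on in the lung epithelium went in both directions. Of 13 measured, 2 rose and 6 fell in Yy1 mutants, and 4 rose and 3 fell in Dicer mutants, with medians of -0.20 and 0.04. Without the Y-high arrays, 5 fell and 0 rose in Yy1 mutants. Among the partners, Foxa2, a forkhead factor of the foregut, fell by 0.96 in Yy1 mutants and by 0.50 in Dicer mutants (adjusted p = 2.41e-05 and 0.00312). Foxa1, its relative, fell by 0.61 in Yy1 mutants (adjusted p = 0.00302), and its Dicer difference was -0.28 (adjusted p = 0.129). Nkx2-1, the factor that specifies lung epithelium and a gene of both lists, fell by 0.93 in Yy1 mutants. Its fall of 0.44 in Dicer mutants (adjusted p = 0.0344) was lost with any of 6 arrays left out, namely control 1, 2 or 3 and Dicer mutant 2, 3 or 4 (adjusted p = 0.0525 to 0.106), and without the Y-high arrays (0.0778).

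The surfactant genes, textbook targets of Gata6, split. Sftpa1, for surfactant protein A, rose by 1.1 in Dicer mutants (adjusted p = 0.000883) and by 0.73 in Yy1 mutants (adjusted p = 0.0153), the latter lost without the Y-high arrays (0.124) or without control 1 (0.0501). Sftpb, for surfactant protein B, read 9.05 to 9.84 in controls, 9.75 to 10.87 in Yy1 mutant lungs and 11.37 to 11.68 in Dicer mutants. Dicer mutants lay above all other arrays, while Yy1 mutants overlapped the controls. It rose by 2.24 in Dicer mutants (adjusted p = 2.72e-05) and by 0.94 in Yy1 mutants (adjusted p = 0.0171), the latter lost without control 1 (0.0575), without control 3 (0.0515) or without the Y-high arrays (0.169). Sftpc, for surfactant protein C, read 10.97 to 11.91 in controls, 8.52 to 9.49 in Yy1 mutant lungs and 10.00 to 10.60 in Dicer mutants, and the genotypes did not overlap. It fell by 2.38 in Yy1 mutants and by 1.14 in Dicer mutants (adjusted p = 2.73e-05 and 0.00552). Id2, an inhibitor of bHLH factors in the distal tips, rose by 0.85 in Dicer mutants (adjusted p = 2.11e-05) and the Yy1 difference was 0.10 (adjusted p = 0.573).

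Between the mutants, 8 of these 13 genes were lower in Yy1 mutants than in Dicer mutants and 0 were higher (3.39% and 1.57% of all genes), with a median of -0.46. Without the Y-high arrays 7 were lower, the call of Nkx2-1 being lost (adjusted p = 0.0755). That call was also lost without Yy1 mutant 1, 3 or 4 or Dicer mutant 1, 3 or 4 (adjusted p = 0.054 to 0.0982). Id2 was lower by 0.75, Sftpb by 1.30 and Sftpc by 1.24. Named after their values were seen, Wnt7b, a ligand from the distal epithelium, was lower by 0.68 (adjusted p = 0.000308), Sox9 by 0.65 (adjusted p = 0.000696) and Bmp4 by 0.43 (adjusted p = 0.00915). Gata6 itself, at -0.24, pointed the same way without passing the test.

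**Figure D3:**
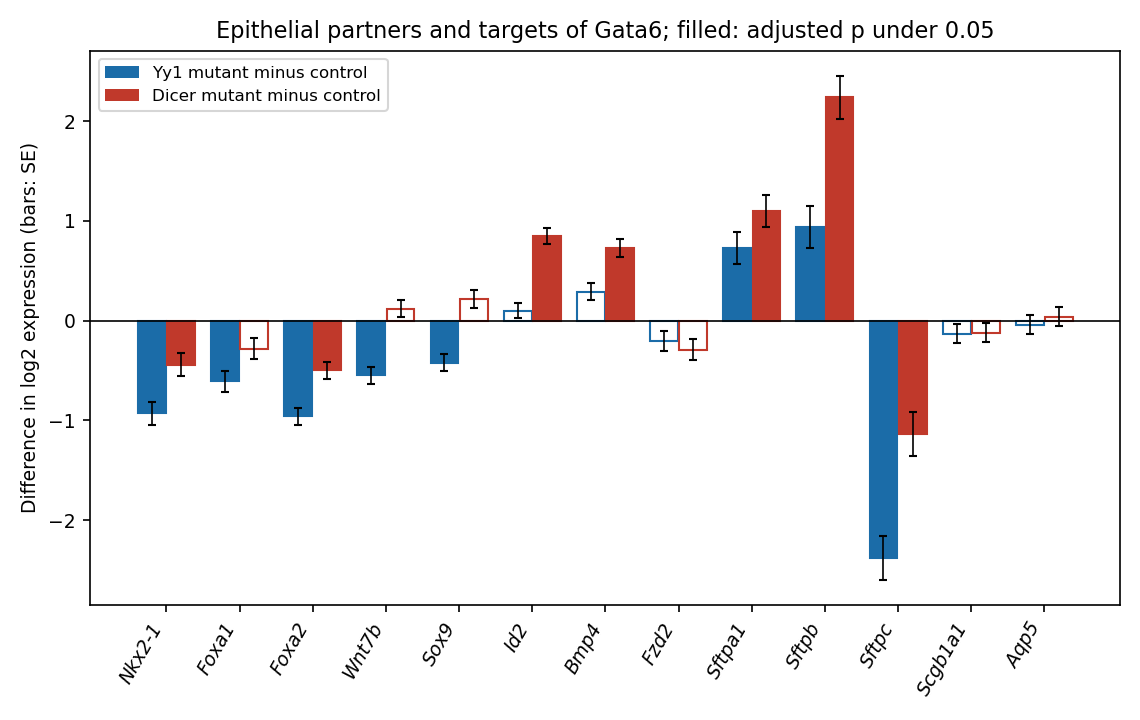
Difference in log2 expression from controls (bars, with SE) for 13 epithelial partners and targets of Gata6 in Yy1 and Dicer mutants; filled bars passed adjusted p under 0.05. Foxa2, Nkx2-1 and Sftpc were lower in both mutants (Nkx2-1 in Dicer mutants not called without the Y-high arrays), Sftpb and Sftpa1 were higher in both (in Yy1 mutants not called without the Y-high arrays), and Id2 and Bmp4 passed the test in Dicer mutants.

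Zfpm2, the Fog cofactor of heart and mesenchyme, was the most strongly raised member in Yy1 mutants. It read 8.11, 8.07, 8.19 and 8.0 in controls, 8.89, 8.66, 8.66 and 8.75 in Yy1 mutants, and 8.37, 8.51, 8.32 and 8.44 in Dicer mutants. Again the genotypes did not overlap, but in the other order from Gata6, with Dicer mutants between controls and Yy1 mutants. It rose 1.57-fold in Yy1 mutants, by 0.65 (SE 0.0733; adjusted p = 0.000127), a call that held under all 22 alternatives. In Dicer mutants it rose 1.25-fold, by 0.32 (SE 0.0733; adjusted p = 0.0141), and the call was lost without the Y-high arrays (0.31; adjusted p = 0.0624).

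Set against each other, Yy1 mutants had 1.26-fold more Zfpm2 than Dicer mutants, a difference of 0.33 (95% interval 0.17 to 0.49; adjusted p = 0.019). That call was lost without Yy1 mutant 1 (adjusted p = 0.0621), Yy1 mutant 4 (0.0519), Dicer mutant 1 (0.051) or Dicer mutant 3 (0.0679), and without the Y-high arrays (0.42; adjusted p = 0.0629). All 4 Yy1 mutant arrays lay above all 4 Dicer mutant arrays, a pattern that 6.60% of all genes showed. The genes closest to Zfpm2 over the 12 arrays were the Wnt agonist Rspo2, the receptor phosphatase gene Ptprd and the sulfotransferase gene Chst8, with correlations of 0.963, 0.955 and 0.954.

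Markers of mesenchyme and smooth muscle moved on the same arrays. Of 11 lung mesenchyme genes, 5 rose in each mutant and 0 fell, or 4 in each without the Y-high arrays, with a mean level of 9.29 to 9.42 in controls, 9.68 to 9.77 in Yy1 mutant lungs and 9.55 to 9.71 in Dicer mutants. Pdgfra, the growth factor receptor of the lung fibroblast lineage, rose by 0.67 in Yy1 mutants (adjusted p = 2.41e-05) with a Dicer difference of 0.10 (adjusted p = 0.367). Of 11 smooth muscle genes, 7 fell in Yy1 mutants and 8 in Dicer mutants, among them the myosin gene Myh11, which fell by 1.99 and fell by 2.06. Zfpm2 minus the mean of the mesenchyme genes was -1.35 to -1.17 in controls, -1.05 to -0.88 in Yy1 mutant lungs and -1.30 to -1.18 in Dicer mutants. So in Yy1 mutants Zfpm2 stood higher against the mean of the list than in either other genotype. Single genes of the list did not move alike. In Yy1 mutants Pdgfra, Dcn, Fgf10 and Lum rose by 0.67, 0.69, 0.88 and 1.29, beside 0.65 for Zfpm2. There 6 of the 11 were not called, among them Foxf1 and Wnt2 at -0.09 and -0.13. The part of tissue composition in the rise was not tested.

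Gata4, the heart and mesenchyme factor that Zfpm2 is known to bind, was not called. It read 6.86, 6.91, 6.96 and 7.14 in controls, 7.09, 7.30, 7.08 and 7.26 in Yy1 mutants, and 6.99, 7.30, 7.21 and 6.87 in Dicer mutants, and the genotypes overlapped. The differences from controls were 0.22 in Yy1 mutants (95% interval 0.00 to 0.43; adjusted p = 0.255) and 0.13 in Dicer mutants (-0.09 to 0.34; adjusted p = 0.506). Of 14 heart muscle genes, which would report cardiac tissue in the sample, 0 were called in any comparison. Their mean level spread more among the mutants, from 6.33 to 7.03 in Yy1 mutants and 6.26 to 7.33 in Dicer mutants, than among controls, at 6.56 to 6.73. In Dicer mutants it was highest in arrays 3 and 4, where Gata4 read 7.21 and 6.87, and lowest in array 1, where Gata4 read 6.99. In Yy1 mutants it was highest in array 2 and lowest in array 4, where Gata4 read 7.30 and 7.26. The part of cardiac tissue in the Gata4 values was not tested.

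Gata5, a factor of heart and pulmonary mesenchyme, was slightly higher in both mutants without passing the test. It read 10.06, 9.75, 9.88 and 9.85 in controls, 10.15, 10.00, 10.09 and 10.13 in Yy1 mutants, and 10.23, 10.16, 10.03 and 10.03 in Dicer mutants. Control 1 reached into both mutant groups, and the other controls lay below all mutant arrays. The difference was 0.21 in Yy1 mutants (95% interval 0.04 to 0.37; adjusted p = 0.152) and 0.23 in Dicer mutants (0.06 to 0.40; adjusted p = 0.0922). Without control 1 the Dicer difference was 0.29 (adjusted p = 0.0389). The mutants differed from each other by -0.02 (95% interval -0.19 to 0.15).

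Of the cardiac and mesenchymal partners of these factors, 13 measured, 0 were called in Yy1 mutants and 1 in Dicer mutants. That gene was Isl1, a LIM homeobox factor, which read 6.73 to 6.86 in controls, 6.87 to 7.30 in Yy1 mutant lungs and 7.53 to 7.71 in Dicer mutants. It rose by 0.82 in Dicer mutants (adjusted p = 8.74e-05), and Yy1 mutants were lower than Dicer mutants by 0.57 (adjusted p = 0.00194). Nr2f2, a nuclear receptor known to bind Zfpm2, differed by -0.07 and -0.02, and neither difference was called.

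**Figure D4:**
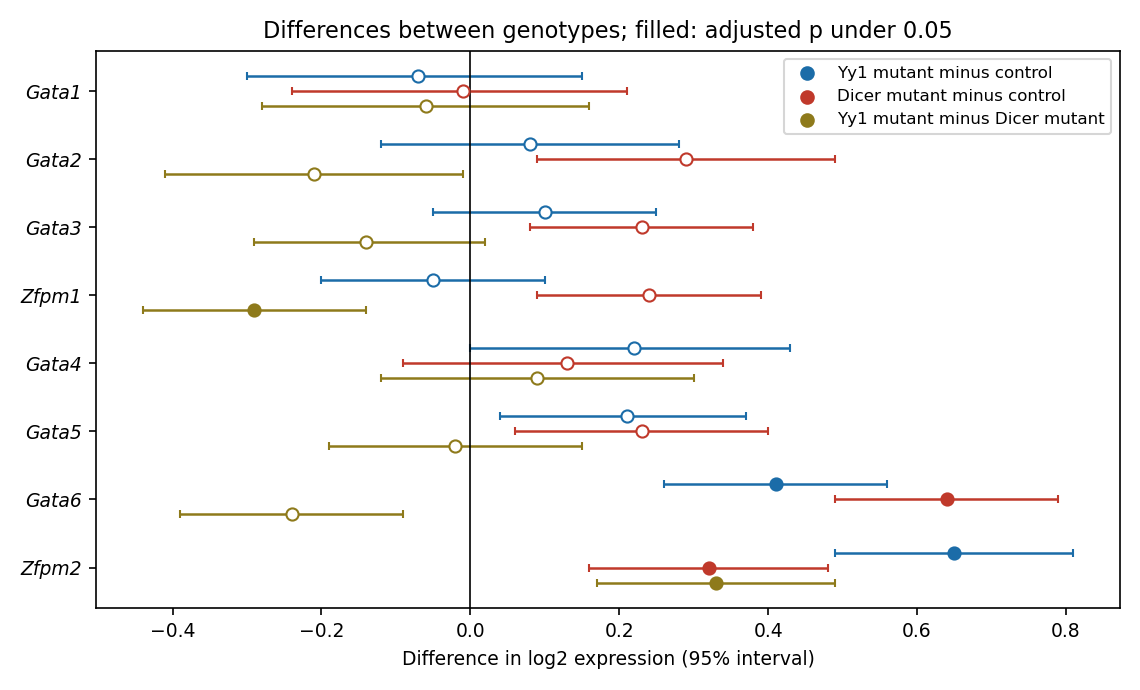
Differences in log2 expression for the 8 genes in the 3 comparisons (points) with 95% intervals from the fit of all 12 arrays; filled points passed adjusted p under 0.05 over all genes. Gata6 and Zfpm2 passed against controls in both mutants, and Zfpm1 and Zfpm2 differed between the mutants in opposite directions.

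Zfpm1, the partner of Gata1, passed the test between the mutants but not in either mutant against controls. It read 7.84, 7.92, 7.76 and 7.97 in controls, 7.86, 7.90, 7.79 and 7.75 in Yy1 mutants, and 8.21, 8.15, 8.04 and 8.04 in Dicer mutants. Dicer mutants lay above all other arrays, and Yy1 mutants overlapped the controls. Against controls the difference was 0.24 in Dicer mutants (SE 0.0695; adjusted p = 0.0507), which passed in 4 of 22 alternatives, among them the fit without control 4 (0.0443). In Yy1 mutants it was -0.05 (95% interval -0.20 to 0.10; adjusted p = 0.78). Yy1 mutants had 0.29 less than Dicer mutants (95% interval of the difference -0.44 to -0.14; adjusted p = 0.0307). That call was lost without Yy1 mutant 1 (adjusted p = 0.0573), Yy1 mutant 3 (0.0893), Yy1 mutant 4 (0.0929), Dicer mutant 1 (0.0813) or Dicer mutant 2 (0.0827), and without the Y-high arrays (0.156). The genes closest to it over the 12 arrays were the peptide transporter gene Tap2, Rmc1 and Vsig2, with correlations of 0.949, 0.934 and 0.929.

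Gata1 itself did not move with its cofactor. It was the only member among the dimmest 30% of genes. It read 5.31, 5.34, 5.35 and 5.75 in controls, 5.37, 5.48, 5.33 and 5.27 in Yy1 mutants, and 5.56, 5.23, 5.41 and 5.49 in Dicer mutants. Control 4 was the highest array of all, and the genotypes overlapped. The differences were -0.07 (95% interval -0.30 to 0.15) and -0.01 (-0.24 to 0.21), and both turned positive, to 0.03 and 0.09, without control 4. Neither was called.

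Of the genes that Gata1 is known to drive in red cells, some rose in Dicer mutants and most were not called. Of 16 measured, 4 rose and 0 fell in Dicer mutants, against 0 and 1 in Yy1 mutants, with medians of 0.22 and 0.03. Without the Y-high arrays 0 were called in Yy1 mutants. Slc4a1, the anion exchanger of the red cell membrane, read 8.13 to 8.51 in controls, 8.11 to 8.41 in Yy1 mutant lungs and 9.05 to 9.66 in Dicer mutants. It rose by 1.02 (adjusted p = 0.000263), and Fech, the last enzyme of haem synthesis, by 0.98 (adjusted p = 5.11e-05). Genes not called went both ways. The globin genes Hbb-y and Hbb-bh1 averaged 11.11 and 6.53 in Dicer mutants against 11.24 and 6.71 in controls. Tfrc averaged 8.48 against 8.64, and the globin gene Hba-x 7.17 against 6.92. Between the mutants 5 of 16 were lower in Yy1 mutants, or 4 without the Y-high arrays, Slc4a1 by 1.06 and Fech by 1.15. Of 9 platelet genes, 3 rose in Dicer mutants, or 2 without the Y-high arrays, where the call of Pf4 was lost (adjusted p = 0.0839). The chemokine gene Ppbp rose by 0.70 (adjusted p = 0.000827). On each array, Zfpm1 minus the mean of the erythroid genes was 0.35 to 0.65 in controls, 0.36 to 0.61 in Yy1 mutant lungs and 0.27 to 0.61 in Dicer mutants. Its SD was 0.137 in controls and 0.149 in Dicer mutants, beside a Zfpm1 difference of 0.24. With that spread, the overlap does not show that Zfpm1 and these genes changed alike. Zfpm1 minus the mean of 14 endothelial genes was -1.16 to -0.82 in controls and -1.24 to -1.07 in Dicer mutants. These ranges overlapped as well, so the overlap was not particular to the erythroid genes. The share of blood cells in the lungs was not measured, and its part in the Zfpm1 difference was not tested.

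Gata2, the factor of blood progenitors, mast cells and endothelium, was higher in most Dicer mutant arrays without a call. It read 6.79, 7.08, 6.77 and 6.83 in controls, 6.99, 7.10, 6.87 and 6.82 in Yy1 mutants, and 7.31, 7.17, 7.0 and 7.14 in Dicer mutants, of which 3 lay above all controls. The difference in Dicer mutants was 0.29 (95% interval 0.09 to 0.49; adjusted p = 0.075), and 0.36 without control 2 (adjusted p = 0.0245). With the replicate number as a block its adjusted p was 0.0472. In Yy1 mutants the difference was 0.08 (-0.12 to 0.28; adjusted p = 0.731).

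Most endothelial genes and a few mast cell genes rose in Dicer mutants. Of 14 endothelial genes, 11 rose in Dicer mutants and 1 in Yy1 mutants, or 8 and 0 without the Y-high arrays, with a mean level of 8.79 to 9.08 in controls, 8.85 to 9.15 in Yy1 mutant lungs and 9.28 to 9.35 in Dicer mutants. The endothelial cadherin gene Cdh5 rose by 0.42 in Dicer mutants (adjusted p = 0.00101). Gata2 minus the mean of the endothelial genes was -2.16 to -1.96 in controls and -2.28 to -1.97 in Dicer mutants. Of 15 mast cell and basophil genes, 4 rose and 1 fell in Dicer mutants, with a median of 0.08, and 2 rose in Yy1 mutants. Without the Y-high arrays 3 rose and 0 fell in Dicer mutants, the call of the protease gene Cpa3 being lost (adjusted p = 0.136), and 0 were called in Yy1 mutants. Hdc, the histamine-forming enzyme gene, read 5.35 to 6.04 in controls and 8.29 to 9.69 in Dicer mutants, a rise of 3.63. The stem cell factor receptor gene Kit rose by 0.51 (adjusted p = 0.000439). Other genes of the list went both ways. Ms4a2 and Fcer1a averaged 4.48 and 2.65 in Dicer mutants against 4.48 and 2.93 in controls. Slc18a2 averaged 5.51 against 5.83, and Tpsb2 5.89 against 5.58. The part of endothelial and mast cells in the Gata2 values was not tested.

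Gata3, the lymphoid and neuronal member, gave different answers by probe set. The brighter one read 6.76, 6.69, 6.62 and 6.62 in controls, 6.80, 6.82, 6.74 and 6.71 in Yy1 mutants, and 6.85, 7.08, 6.84 and 6.83 in Dicer mutants. Dicer mutants lay above all other arrays, with a difference from controls of 0.23 (95% interval 0.08 to 0.38; adjusted p = 0.0586). The Yy1 difference was 0.10 (-0.05 to 0.25; adjusted p = 0.518). The dimmer probe set read 6.53 ± 0.191 in controls, 6.53 ± 0.179 in Yy1 mutant lungs and 6.44 ± 0.0942 in Dicer mutants (SD, n = 4), so it did not repeat the higher level in Dicer mutants, and the mean of the probe sets differed by 0.07. Of 11 T and innate lymphoid genes, 1 rose and 1 fell in each mutant: the nuclear receptor gene Rora was higher, by 0.34 and 0.32, and the T cell factor gene Bcl11b lower. Both were not called in either mutant without the Y-high arrays, except for the fall of Bcl11b in Dicer mutants. Of 10 genes of autonomic neurons and neural crest, 0 rose and 1 fell in each mutant, the receptor gene Ret, by 0.93 and 1.15.

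In blood, Gata factors act in complexes with Tal1, Lmo2 and other factors. Of 14 measured partners, 1 fell in Yy1 mutants, and 2 rose and 3 fell in Dicer mutants. Without the Y-high arrays 0 were called in Yy1 mutants, and 2 fell and 0 rose in Dicer mutants. Bcl11a, the repressor of fetal globin genes, read 8.38 to 8.55 in controls, 7.92 to 8.25 in Yy1 mutant lungs and 7.70 to 7.79 in Dicer mutants, with no overlap. It fell by 0.38 in Yy1 mutants (adjusted p = 0.0122), or by 0.24 without the Y-high arrays (adjusted p = 0.192), and by 0.73 in Dicer mutants (adjusted p = 8.84e-05). Runx1, a master factor of blood formation, fell by 0.59 in Dicer mutants (adjusted p = 0.00195). Tal1 and Lmo2 differed by 0.08 and 0.13 in Dicer mutants, and neither was called.

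Few genes of the machinery that Fog proteins recruit were called. Over all genes, 6.61% were called in Yy1 mutants and 8.75% in Dicer mutants. Counts of 0 and 1 in 12 genes lie near those shares. Of 12 corepressor genes, which cover the NuRD complex and the CtBP proteins, 0 were called in Yy1 mutants (limma) and 1 in Dicer mutants. That one, Mbd3, fell by 0.30 (adjusted p = 0.0271), a call lost without the Y-high arrays (0.119), without control 1 (0.0789) or 4 (0.0745), and without Dicer mutant 2 (0.0506), 3 (0.0859) or 4 (0.0746). Of 9 other genes whose proteins hold a finger of the Gata type, 0 were called in Yy1 mutants, and 1 rose and 1 fell in Dicer mutants, or 0 without the Y-high arrays. The one that fell, Gatad2a, another NuRD subunit, fell by 0.28 (adjusted p = 0.0447), a call lost without any one of 9 arrays, namely controls 1 to 3, Yy1 mutants 1 to 3 and Dicer mutants 2 to 4 (adjusted p = 0.0532 to 0.123). Mta3, a NuRD subunit, read 9.10 to 9.16 in controls, 8.81 to 9.02 in Yy1 mutant lungs and 9.32 to 9.53 in Dicer mutants, with no overlap. It rose by 0.33 in Dicer mutants (adjusted p = 0.0077, and 0.0516 without the Y-high arrays). Its Yy1 difference was -0.22 (adjusted p = 0.0762), and it was lower in Yy1 than in Dicer mutants by 0.55 (adjusted p = 0.000318).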

How the data were processed

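Total RNA of mouse E14.5 lungs was hybridised to single-channel Affymetrix arrays, per the labels. The deposited values were on a log2 scale, from 1.1 to 13.6, and already normalised between arrays by the authors; both are inferred from the values, whose array medians are nearly equal, and the method, the software and the design of the array are not stated in the labels. Of 41345 probe sets, 23521 carried 1 gene symbol and were used, the brightest over the 12 arrays for each gene. The 3 genotypes were fitted in one model with 9 residual degrees of freedom in limma 3.58.1 (R 4.3.3), two-sided, with Benjamini-Hochberg adjustment over 22180 genes. The fit was tested on simulated data. Of 67 genes shifted by 0.3 on the log2 scale in the Yy1 comparison, 19.4% were called. Of 67 shifted by 0.6, 73.1% were called. Far fewer genes were shifted there than were called in the data. That makes the adjustment stricter, so these shares are not the sensitivity of this study. The precision rests on 4 arrays per genotype.

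The members and the 20 lists of partners and markers (222 of 244 genes measured) were chosen with earlier results of these data known. Named genes were the members and up to 4 called genes per list with the smallest p. So were 3 genes per called member by correlation among 19243 annotated genes. Gata6os, Gata5os, Sftpa1, Foxa1, Wnt7b, Sox9, Bmp4, Nr2f2, Tal1, Lmo2 and Eif2s3y were added after values were seen. So were Hbb-y, Hbb-bh1, Hba-x, Tfrc, Ms4a2, Fcer1a, Slc18a2, Tpsb2 and the chromosomal neighbours. The alternatives tried were equal array medians, the mean of probe sets, dropping the dimmest 30% of genes, quantile normalisation, an intensity trend with a robust prior, only the genotypes compared, array weights, a replicate block, a minimum change of 1.2-fold, each array left out, and the 3 arrays with a high Y-linked signal (Y-high arrays) left out.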

Additional observations from a re-analysis of the deposited data

Results flagged for a closer look

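On single arrays, 3 of the 24 groups of 4 arrays (8 genes in 3 genotypes) held a value far from the other 3; chance marks about 1 group in 20. Gata1 read 5.75 in control 4, against 5.31 to 5.35 in the other controls. Gata3 read 7.08 in Dicer mutant 2, against 6.83 to 6.85 in the other Dicer mutants. Gata6 read 10.17 in Dicer mutant 2, against 10.04 to 10.06.

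The effects of the mutants differed in the direct test for both Fog genes. Zfpm1 was lower in Yy1 than in Dicer mutants, with a difference of -0.29 (adjusted p = 0.0307, limma), and Zfpm2 was higher, with a difference of 0.33 (adjusted p = 0.019, limma). These calls passed in 14 and 16 of 22 alternatives. Both were lost without the Y-high arrays and with some single arrays left out.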

How the results depend on the processing

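The calls of Gata6 and Zfpm2 against controls kept their direction in all alternatives, and both Fog differences between the mutants did as well. The number of members called in Dicer mutants, 2 as reported, was 5 with array weights or without the dimmest 30% of genes, 4 with the intensity trend and robust prior, and 1 with the minimum change of 1.2-fold or without the Y-high arrays. In Yy1 mutants it was 1 with the minimum change. Between the mutants, also 2 as reported, it was 3 with array weights, quantile normalisation, the intensity trend and robust prior or without the dimmest 30% of genes, where Gata6 was called as well. It was 0 with the minimum change and 0 without the Y-high arrays, and it ranged from 0 to 2 with 1 array left out. Over all genes, the counts of calls in Yy1 mutants, Dicer mutants and between them were 1465, 1940 and 1101 as reported, 256, 275 and 183 with the minimum change, and 606, 976 and 435 without the Y-high arrays. Between the mutants, array weights gave 1806. With 1 array left out the counts ranged from 1020 to 1455, from 1275 to 1991 and from 726 to 1180; without Dicer mutant 4 they were 1275 in Dicer mutants and 726 between the mutants. Uncalled differences near 0 changed sign. Gata1 in Dicer mutants was 0.00257 with array weights, 0.02 after quantile normalisation, 0.09 without control 4 and 0.05 without Dicer mutant 2, and Gata1 in Yy1 mutants was 0.03 without control 4; with 1 array left out these ran from -0.06 to 0.09 and from -0.12 to 0.03. Gata5 between the mutants was 0.02 with array weights, 0.02 without Dicer mutant 1 and 0.01 without Yy1 mutant 2, in a range from -0.05 to 0.02 with 1 array left out. The cause was not tested. Where fewer genes or arrays were used, the adjustment or the spread changed by construction. With the replicate number as a block, 2, 3 and 2 members were called. Same-numbered arrays share only a number: their deviations correlated at -0.161 to 0.19, 3 of 12 pairs over 0.1, and 0 of 12 arrays correlated best with their own number in both other genotypes. The block changed no call of a member but that of Gata2 in Dicer mutants. Small shifts are limited by 4 arrays a genotype and, for Gata1, by a dim probe set.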

Other observations

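The genes beside the called members on the chromosome were looked up in the RefSeq order. Of the genes near Gata6, the overlapping Gata6os rose in both mutants, by 0.66 and 0.87, as given above. Cables1 differed by 0.05 in Yy1 mutants and -0.03 in Dicer mutants, Tmem241 by 0.14 and 0.19, and Mir133a-1 by -0.08 and -0.30. None of the differences of these other genes was called. Of those next to Zfpm1, Zfp469 differed by 0.20 and 0.21 and Trhr2 by -0.02 and -0.08. Further out, Banp differed by -0.05 and -0.04 and Zc3h18 by -0.12 and -0.10, and none of these was called either. Next to Zfpm2, Oxr1, an oxidation resistance gene, differed by -0.32 in Yy1 mutants (adjusted p = 0.0428), a call lost with any of 10 single arrays left out (adjusted p = 0.05 to 0.116) and without the Y-high arrays (0.143), and by -0.02 in Dicer mutants.

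Other lists cover tissues and cells beside those described so far. Of 9 liver genes, 0 were called in Yy1 mutants and 1 rose in Dicer mutants, Afp, for the fetal serum protein, by 2.77 (adjusted p = 1.03e-05). Of 9 mesothelial genes, 2 rose and 1 fell in Yy1 mutants and 4 rose and 1 fell in Dicer mutants (2 and 1 without the Y-high arrays), where the uroplakin gene Upk3b rose by 0.42. Of 8 stomach and oesophagus genes, 1 fell in Yy1 mutants, and 1 rose and 1 fell in Dicer mutants, the rise lost without the Y-high arrays. The gastric protease gene Cym fell by 2.76 and fell by 3.47. Macrophage genes rose in both mutants, 10 and 11 of 12, or 3 in Yy1 mutants without the Y-high arrays. Of 6 lymphatic endothelial genes, 1 fell in Yy1 mutants, the podoplanin gene Pdpn, by 0.62, and 1 rose in Dicer mutants, or 0 in Dicer mutants without the Y-high arrays.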
